A study of Homo sapiens with 48 samples.

Results

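XBP1, ERN1 (which encodes IRE1), ATF6, ATF6B, CREB3, CREB3L2, CREB3L4, MBTPS1 and MBTPS2 carry out the IRE1–XBP1 and ATF6 arms of the unfolded protein response and the related CREB3 family pathway. They were chosen as named genes of these pathways, with earlier results of these data known, and all 9 are among the 14685 genes counted at each time. The cells were HEK293T, a human embryonic kidney line of wild-type genotype, and in every arm they were transfected with a plasmid that expresses the nuclear cap-binding protein NCBP1 fused to Halo. T-REX delivers the lipid-derived electrophile 4-hydroxynonenal (HNE) to the fused protein, because Halo binds a photocaged precursor and light then sets HNE free beside NCBP1. For T-REX in HEK293T cells, RNA-seq cultures included, the Methods name a precursor of an alkyne-bearing form of HNE. Besides T-REX, labelled reaction, there were 3 controls. They are called here light alone (labelled control UV), probe alone (control Pre) and DMSO (control DMSO). The Methods define light alone as light together with the precursor in DMSO, probe alone as the precursor without light, and DMSO as DMSO only and no light, so that light alone and T-REX are not told apart by that wording. RNA was taken 3, 6 and 12 h after treatment from 4 biological replicates of each arm, 48 libraries in all. The plasmid was transfected transiently, and the counts are of whole cultures, so that a change in the share of responding cells and a change in RNA per cell cannot be told apart.

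These genes share a mode of control that starts at the membrane of the endoplasmic reticulum. When unfolded protein builds up, the kinase and nuclease IRE1 cuts a short segment out of the XBP1 mRNA, and the rejoined mRNA is read in another frame into the active transcription factor XBP1s. ATF6, ATF6B and the CREB3 family proteins are made as membrane-bound precursors that travel to the Golgi apparatus, where the proteases encoded by MBTPS1 (site-1) and MBTPS2 (site-2) release their transcription factor domains. XBP1s and ATF6 are known to raise genes for protein folding, translocation and degradation at the endoplasmic reticulum, and CREB3L2 is known to raise genes of the secretory pathway, SEC24D among them. Of these steps, the counts measure only the amount of each mRNA, since cleavage of a protein and splicing by IRE1 leave no mark in a gene's total.

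The segment that IRE1 removes is shown because the counts do not separate the XBP1 mRNAs with and without it. It is 26 bases long and lies in the coding part of exon 4 of the annotated unspliced transcript, at chr22:28796124-28796149 on the minus strand (GENCODE 29, GRCh38). Because the sequence repeats at its ends, 7 placements give the same spliced RNA, and the one marked is that in which both ends follow CNGCAG, as at the known IRE1 cuts, 2 bases upstream of the annotated gap. The annotated unspliced form has a coding length of 783 bases and the spliced form one of 1128 bases. The segment is in capitals and has 25 bases on either side of it:
XBP1 unspliced: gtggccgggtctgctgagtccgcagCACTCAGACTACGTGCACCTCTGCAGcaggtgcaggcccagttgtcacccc
XBP1 spliced: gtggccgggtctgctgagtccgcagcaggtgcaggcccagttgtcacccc
Every value of XBP1 given here is a sum over both forms.

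Promoters were read from RefSeq windows on GRCh38.p14 that hold 250 bases before and 50 after each start. All 9 genes matched, XBP1 and CREB3L2 with 2 windows each. Each window was searched on both strands for the endoplasmic reticulum stress element ERSE (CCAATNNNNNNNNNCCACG, the known site of ATF6 with NF-Y), ERSE-II (ATTGG, any 1 base, then CCACG), the core of the unfolded protein response element (TGACGTG), the cyclic AMP response element CRE (TGACGTCA), which shares the letters TGACGT with that core, and the amino acid response element CARE (TGATGNAA). Of the 9 members, only XBP1 held an ERSE, which occurs in 27 of 35116 promoter windows (0.0769%). HSPA5, whose promoter is the classical carrier of this element, is printed beside it. CREB3L2 held a CRE, found in 1.85% of windows, and its other window, at chr7:137932939-137933238, held a CARE 17 bases after the start, found in 3.62%. No other member held any of these 5 motifs in its window. The capitals mark the ERSE in XBP1 and HSPA5 and the CRE in CREB3L2, and each stretch ends before the annotated start:
XBP1, chr22:28800598-28800681, minus strand: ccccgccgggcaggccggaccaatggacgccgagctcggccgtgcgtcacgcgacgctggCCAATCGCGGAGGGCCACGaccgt
HSPA5, chr9:125241386-125241469, minus strand: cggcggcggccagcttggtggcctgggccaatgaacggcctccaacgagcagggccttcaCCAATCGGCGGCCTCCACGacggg
CREB3L2, chr7:138002253-138002325, minus strand: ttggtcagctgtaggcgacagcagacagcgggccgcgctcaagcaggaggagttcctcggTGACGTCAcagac
The XBP1 element lies at −52 to −34 from the RefSeq start, that of HSPA5 at −66 to −48, and the CRE of CREB3L2 at −179 to −172. These are matches of letters and not measurements of binding.

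Total counts per library lay between 23952455 and 37099535, and the lowest count of any member in any library was 104 (CREB3L4). Of 5 markers of HEK293T cells, LIN28B, NEFM, NEFL and VIM were in the table and PAX2 was not, and their summed level was 662 to 970 CPM (counts scaled to a library total of 1000000) in all arms. Of 7 markers of other cell types, only COL1A1 was in the table, at 2.13 to 6.07 CPM. The libraries farthest from the other 3 of their arm were DMSO replicate 3 at 12 h, light alone replicate 3 at 6 h and T-REX replicate 3 at 3 h, with a median absolute difference over all genes of 0.215, 0.212 and 0.189 on the log2 scale, against a median of 0.101 over the 48 libraries. Results that change without them are given in both ways. NCBP1, in which plasmid and endogenous mRNA cannot be told apart, was not equal between arms. Log2 fold changes of NCBP1 under T-REX, in the order of light alone, probe alone and DMSO, were 0.30, 0.25 and 0.50 at 3 h, 0.80, −0.19 and 0.44 at 6 h, and 0.51, −0.04 and 0.73 at 12 h. The controls differed in NCBP1 too. Light alone against probe alone gave −0.99 at 6 h (edgeR adjusted p = 0.0144), and probe alone against DMSO gave 0.77 at 12 h (adjusted p = 0.00541). No other comparison of controls called it. The part of these differences in the results below was not tested.

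Per kb of exon, XBP1 had the highest level of the 9 genes, with a median of 23.5 CPM per kb over the 48 libraries and a range of 16.25 to 35.8. CREB3L2 followed at 18.5, ATF6 at 17.9, MBTPS1 at 15.4 and MBTPS2 at 13.5 CPM per kb. ATF6B, the close relative of ATF6, had 9.60 CPM per kb and CREB3 5.50. The lowest levels per kb were those of ERN1, at 2.77, and CREB3L4, at 2.01. The ranges of every pair of neighbours in this order overlapped over the 48 libraries. Of the other genes of the table, TNXB overlaps ATF6B on the same strand, AL391825.1 overlaps ATF6, AC040169.3 overlaps MBTPS1 and YY2 overlaps MBTPS2, so that reads of these pairs could be shared if the authors' counting allowed it. TLN1 and GBA2 overlap CREB3, and JTB overlaps CREB3L4, on the other strand. XBP1, ERN1 and CREB3L2 have no overlapping gene in the table.

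**Figure D1:**
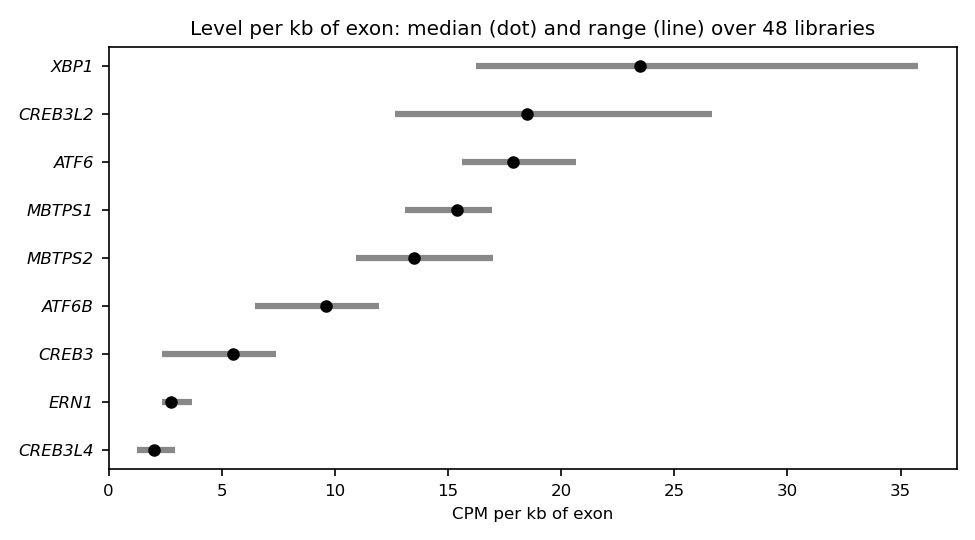
Level of each member in CPM per kb of exon (x axis); the dot is the median and the line the range over the 48 libraries. XBP1 has the highest median, 23.5, and CREB3L4 the lowest, 2.01, and each line overlaps that of its neighbour.

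XBP1 (ENSG00000100219, chr22:28794555-28800597, minus strand) was higher under T-REX than in each control at 3 h, by 1.23-fold to 1.33-fold. The 4 T-REX libraries of 3 h had 106.6, 105, 108.3 and 100.1 CPM of XBP1. With light alone, XBP1 was at 80.9, 81.6, 78.3 and 74.9 CPM. With probe alone it was at 89.0, 90.7, 84.6 and 80.95 CPM, and with DMSO at 88.9, 80.6, 77.8 and 84.9 CPM. The lowest T-REX library thus lay above the highest of the 12 control libraries, where 2.04% of all genes had T-REX libraries all above or all below the controls. Set against light alone, XBP1 was 0.41 ± 0.053 (SE) higher on the log2 scale, with an edgeR adjusted p of 0.000661. Set against probe alone it was 0.30 ± 0.053 higher (adjusted p = 0.0106), and DMSO gave a difference of 0.34 ± 0.053 (adjusted p = 0.00132). These 3 comparisons share the T-REX libraries, so that they are not independent of each other. The calls of XBP1 at 3 h were kept in all 16 fits that left out 1 library. That against probe alone was lost in a fit of only the 2 arms compared (adjusted p = 0.0978).

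At 6 h the XBP1 levels of all arms were lower than at 3 h, and the T-REX libraries again stood above every control library. They had 80.2, 78.4, 82.2 and 81.5 CPM. With light alone, XBP1 was at 63.5, 65.35, 59.0 and 71.0 CPM, with probe alone at 71.3, 60.5, 62.3 and 70.0 CPM, and with DMSO at 60.6, 63.45, 60.3 and 64.9 CPM. The groups did not overlap, but the test did not call each comparison. XBP1 was called higher than with light alone by 0.31 ± 0.063 on the log2 scale (adjusted p = 0.0272) and over DMSO by 0.37 ± 0.063 (adjusted p = 0.00667). Against probe alone the log2 fold change was 0.29 ± 0.063 with an adjusted p of 0.0846 and a 95% interval of 0.16 to 0.42. The former call was lost without any 1 of the 4 T-REX libraries or of light alone replicates 1, 2 and 3, with adjusted p up to 0.125, and in a fit of only the 2 arms (adjusted p = 0.175). Without light alone replicate 3, which stands apart, XBP1 had an adjusted p of 0.0524 against light alone, and it was called against probe alone (adjusted p = 0.0128).

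At 12 h the T-REX libraries had 72.4, 73.1, 70.7 and 71.8 CPM of XBP1. With light alone, XBP1 was at 49.2, 56.75, 53.1 and 54.9 CPM, with probe alone at 56.7, 63.55, 57.3 and 64.05 CPM, and with DMSO at 51.4, 53.2, 54.5 and 56.8 CPM. All 4 T-REX libraries lay above all 12 control libraries for the third time. Its log2 fold change was 0.43 ± 0.059 for light alone (adjusted p = 0.000179), 0.25 ± 0.059 for probe alone (adjusted p = 0.0409) and 0.41 ± 0.059 for DMSO (adjusted p = 9.83e-05). Of all genes tested, 0.81% at 6 h and 2.07% at 12 h had all 4 T-REX libraries above or below all 12 control libraries. The call against probe alone at 12 h was lost in 11 of the 16 fits that left out 1 library (DMSO replicate 2, probe alone replicates 1, 2 and 3, any T-REX replicate, or light alone replicates 2, 3 and 4), with adjusted p up to 0.186. The other 2 calls of XBP1 at 12 h were kept in all 16.

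**Figure D2:**
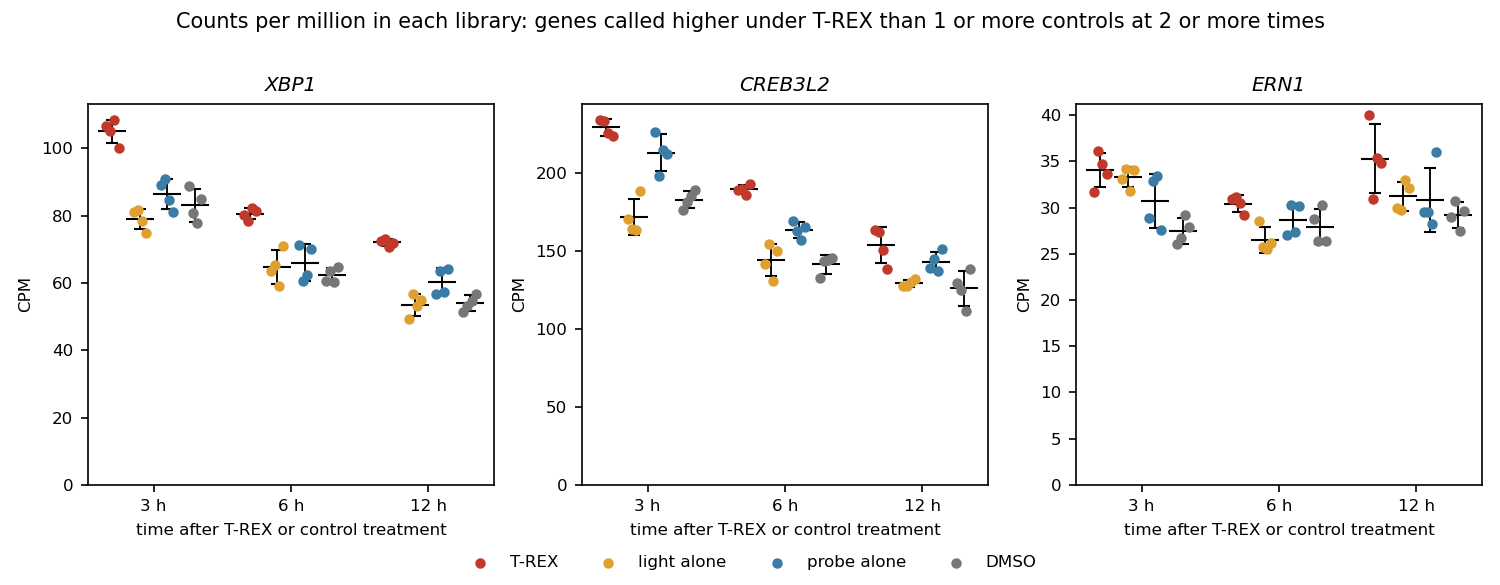
CPM (y axis) of XBP1, CREB3L2 and ERN1 in every library, by time (x axis) and arm (colour); the bars are the mean and SD of 4 libraries. The T-REX points of XBP1 lie above all control points at each time, those of CREB3L2 do so at 6 h, and those of ERN1 overlap 1 or more controls at each time.

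CREB3L2 (ENSG00000182158, chr7:137874979-138002067, minus strand), known for its role in the secretory pathway, was higher under T-REX than with light alone and DMSO at all 3 times, and it was not called against probe alone at any. At 3 h the T-REX libraries had 234.4, 233.6, 225.7 and 223.7 CPM of CREB3L2. Light alone had 170.5, 164.4, 163.5 and 188.3 CPM, and DMSO 176.2, 181.5, 185.4 and 189 CPM. Probe alone had 226.7, 198.4, 215.1 and 212.6 CPM, which overlaps T-REX. CREB3L2 was higher by 0.42 ± 0.048 (SE) on the log2 scale against light alone (edgeR adjusted p = 0.00016) and by 0.33 ± 0.048 over DMSO (adjusted p = 0.00104). Against probe alone it was 0.12 ± 0.048 (adjusted p = 0.191), with a 95% interval of 0.02 to 0.22. Both calls at 3 h were kept in all 16 fits that left out 1 library.

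At 6 h CREB3L2 separated T-REX from every control library, as did 0.81% of all genes in either direction. The T-REX libraries had 189.4, 189.9, 186 and 192.9 CPM, and probe alone, the nearest control, had 169, 163, 157.1 and 165.4 CPM. Light alone had 141.6, 154.6, 130.9 and 149.8 CPM, and DMSO 132.5, 143.7, 144.3 and 145.8 CPM. The difference in CREB3L2 was 0.39 on the log2 scale for light alone (adjusted p = 0.00031), 0.21 for probe alone (adjusted p = 0.139) and 0.42 for DMSO (adjusted p = 8.09e-05), each with an SE of 0.051 or 0.052. Without light alone replicate 3, the adjusted p of CREB3L2 against probe alone was 0.0201.

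At 12 h the difference in CREB3L2 against probe alone was 0.10 on the log2 scale, with a 95% interval of −0.02 to 0.22 (adjusted p = 0.558). The T-REX libraries had 163.4, 162, 151 and 138.6 CPM, and probe alone 139, 144.7, 137.1 and 151.2 CPM, so that these arms overlap. Light alone had 127.7, 127.3, 130.1 and 131.9 CPM and DMSO 129.6, 124.9, 111.4 and 138.4 CPM. CREB3L2 was called against light alone at a log2 fold change of 0.25 ± 0.059 (adjusted p = 0.0251), and against DMSO at 0.28 ± 0.059 (adjusted p = 0.0031). Leaving out T-REX replicate 1, 2 or 3 or any 1 light alone library ended the call against light alone (adjusted p up to 0.148), and a fit of only the 2 arms ended that against DMSO (adjusted p = 0.0507).

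ERN1, the sensor that splices the XBP1 mRNA, was called higher under T-REX only against DMSO, at 3 and 12 h. At 3 h its levels were 31.7, 36.1, 34.75 and 33.6 CPM under T-REX and 26, 26.7, 29.2 and 27.9 CPM with DMSO. Light alone had 33.05, 34.1, 31.8 and 34.1 CPM of ERN1, which is within the range of T-REX, and probe alone had 28.9, 32.9, 33.4 and 27.5 CPM. ERN1 at 3 h had a log2 fold change of 0.31 ± 0.072 (SE) against DMSO (edgeR adjusted p = 0.0141), 0.16 over probe alone (adjusted p = 0.227) and 0.03 over light alone (adjusted p = 0.898). At 12 h it was 0.27 ± 0.082 against DMSO (adjusted p = 0.0328), 0.19 over probe alone (adjusted p = 0.365) and 0.18 over light alone (adjusted p = 0.344). The 12 h libraries had 40.05, 31.0, 35.4 and 34.8 CPM under T-REX and 28.9, 30.7, 27.4 and 29.6 CPM with DMSO. At 6 h no comparison called ERN1, and its log2 fold changes were 0.08 to 0.20. The call at 3 h was lost without DMSO replicate 1 or 2 (adjusted p up to 0.0584) and in a fit of only the 2 arms (0.0595), and that at 12 h without DMSO replicate 3 (0.0518), without T-REX replicate 1, 3 or 4 (up to 0.15) and in a fit of only the 2 arms (0.096).

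CREB3, the founding member of its family, was called only against DMSO at 12 h, with a log2 fold change of 0.42 ± 0.13 (SE) and an edgeR adjusted p of 0.0375. Its levels were low, at 11.2, 9.17, 10.1 and 12.4 CPM under T-REX and 9.74, 6.56, 6.80 and 8.89 CPM with DMSO, and these overlap. Against light alone at 12 h the log2 fold change of CREB3 was 0.28 (adjusted p = 0.352) and against probe alone 0.05 (adjusted p = 0.93). The call was lost without DMSO replicate 2 or 3 and without T-REX replicate 1, 3 or 4, with adjusted p up to 0.132 and of 0.0894 without DMSO replicate 3, and in a fit of only the 2 arms (0.134). At 6 h CREB3 ranged within its arms from 4.53 to 12.8 CPM with light alone, where replicate 3 was lowest, and from 6.596 to 14.1 CPM with DMSO.

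ATF6, the membrane-bound sensor whose cleaved form acts with XBP1s, was not called in any of the 9 comparisons with T-REX. At 12 h its level was 141.7, 152.5, 138.3 and 135.9 CPM under T-REX and 131.2, 126.8, 123.1 and 130.3 CPM with light alone. The log2 fold change was 0.15 (edgeR adjusted p = 0.118), with a 95% interval of 0.06 to 0.25. Without DMSO replicate 3, ATF6 was called higher at 12 h against light alone (adjusted p = 0.0217) and DMSO (0.0392), and DESeq2 called it against light alone (0.0462). A fit of only the 2 arms also called it against light alone at 12 h (edgeR adjusted p = 0.0104). With the authors' 2 RUV factors (estimates of unwanted variation) as covariates, edgeR called ATF6 higher against light alone and DMSO at 6 and 12 h. At 6 h its T-REX libraries were at 145.5 to 156.8 CPM, those of light alone at 135.2 to 142.8 CPM and those of DMSO at 123.8 to 141.2 CPM. Its log2 fold changes at 6 h were 0.06 to 0.16 (edgeR adjusted p = 0.16 against DMSO). At 3 h all arms overlapped, with log2 fold changes of −0.01 to 0.09.

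ATF6B, its paralogue, had 95% intervals that held 0 in all 9 comparisons, with log2 fold changes from −0.10 to 0.13. CREB3L4, the member with the fewest counts, had log2 fold changes from −0.13 to 0.43, and the largest, against light alone at 3 h, had an adjusted p of 0.163 and a 95% interval of 0.13 to 0.73. At 3 h it was at 5.44 to 7.65 CPM under T-REX and 4.04 to 5.77 CPM with light alone, which overlap. MBTPS1, the site-1 protease, had log2 fold changes between −0.05 and 0.12, the highest against DMSO at 12 h (adjusted p = 0.0785, and 0.0379 by DESeq2). MBTPS2, the site-2 protease, had log2 fold changes below 0 at 3 h that edgeR did not call without covariates. With RUV factors as covariates, edgeR called MBTPS2 lower against probe alone and DMSO at 3 h. Its T-REX libraries at 3 h had 109.8, 109.4, 97.6 and 108 CPM, against 117.1, 127, 111 and 113.9 CPM with probe alone and 116.5, 120.2, 115.1 and 123.6 CPM with DMSO. The log2 fold change of MBTPS2 at 3 h was −0.16 ± 0.051 against DMSO (edgeR adjusted p = 0.067, and 0.0471 by DESeq2), −0.13 over probe alone (adjusted p = 0.193) and −0.04 over light alone (adjusted p = 0.785).

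**Figure D3:**
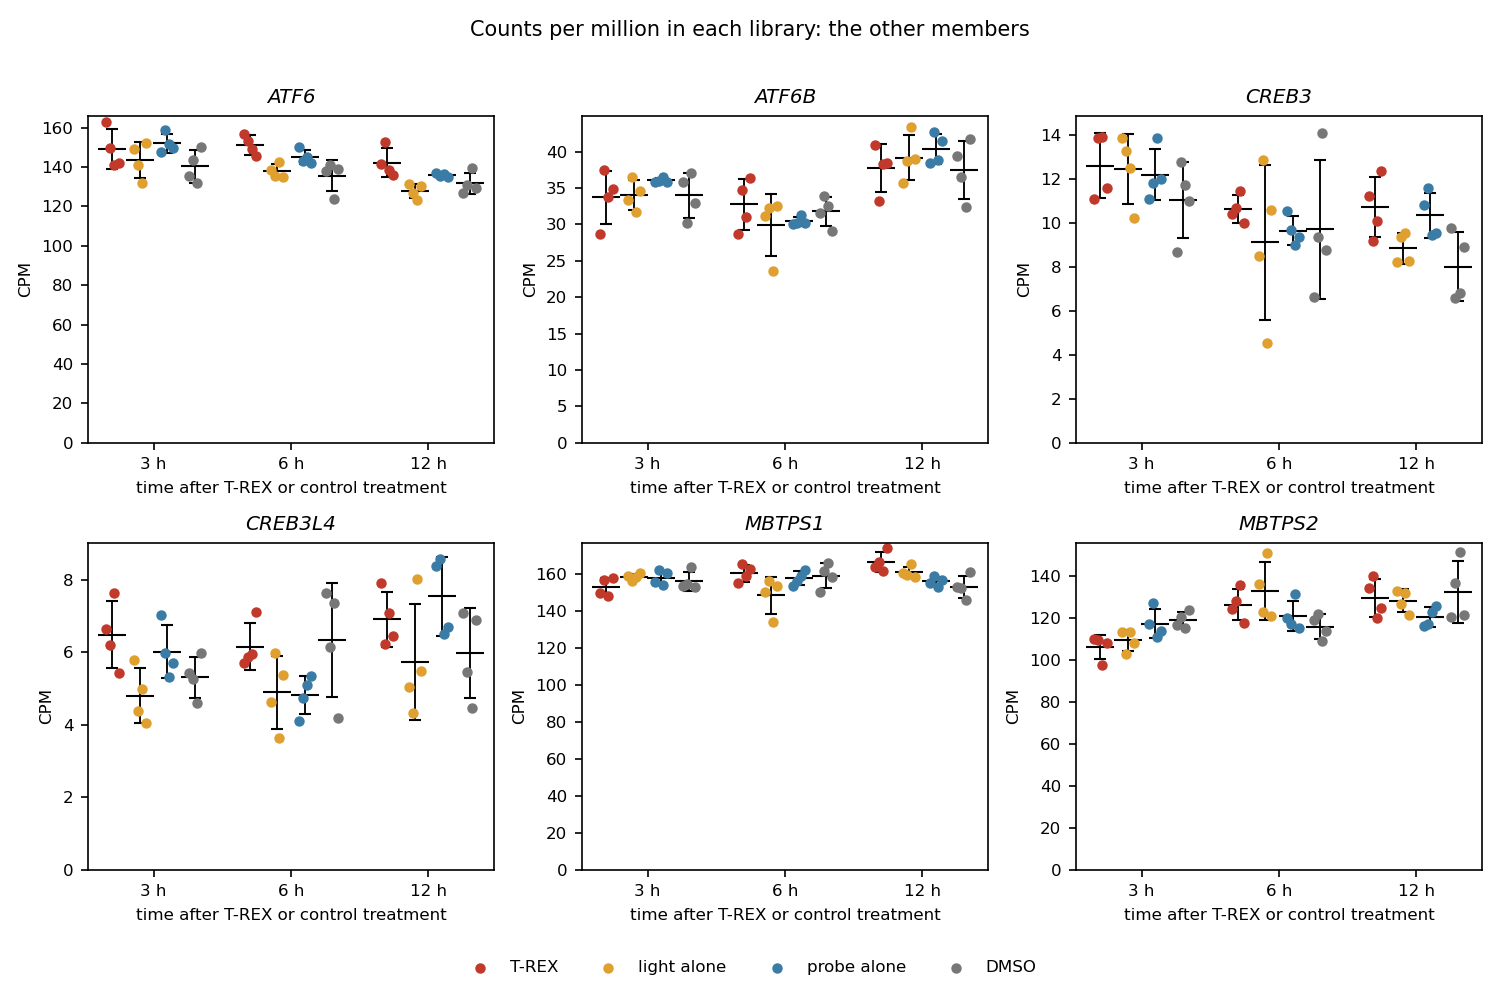
CPM (y axis) of the 6 other members in every library, by time (x axis) and arm (colour); the bars are the mean and SD of 4 libraries. The T-REX mean of MBTPS2 at 3 h is below that of each control, with no call by edgeR without covariates. The light alone point of 23.6 CPM in ATF6B at 6 h is replicate 3.

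In the edgeR fits of all libraries without covariates, all members called against a control were higher under T-REX. At 3 h, 2 of 9 were called against light alone (XBP1 and CREB3L2, where 0.197% of all genes were called), 1 against probe alone (XBP1, 1.05%) and 3 against DMSO (XBP1, CREB3L2 and ERN1, 5.99%). At 6 h, XBP1 and CREB3L2 were the 2 called both against light alone (0.218%) and over DMSO (0.415%), and probe alone gave 0 (0.109%). Against probe alone at 6 h, 2 members had an unadjusted edgeR p under 0.05, again XBP1 and CREB3L2, and DESeq2 called both, where 6.56% and 0.388% of all genes passed these thresholds. At 12 h, 2 were called against light alone (XBP1 and CREB3L2, 1.29%), 1 against probe alone (XBP1, 0.701%) and 4 against DMSO (XBP1, CREB3L2, ERN1 and CREB3, 10.9%). Over the 9 members the median log2 fold change was 0.032 to 0.195 at 3 h, 0.105 to 0.198 at 6 h and 0.090 to 0.208 at 12 h, where that of all genes lay between −0.0019 and 0.0309.

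**Figure D4:**
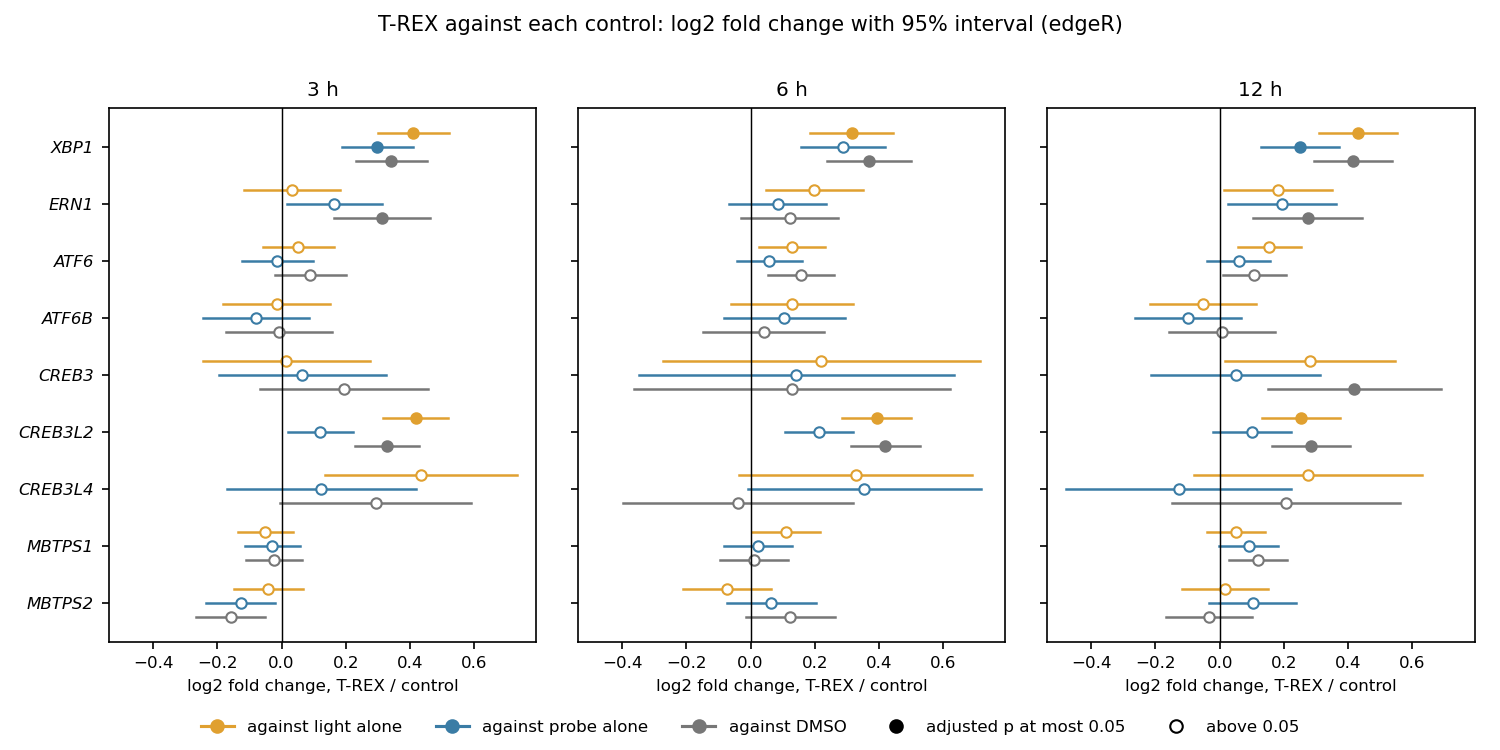
Log2 fold change of T-REX over each control (x axis) with its 95% interval for the 9 members (y axis) at 3, 6 and 12 h; colours give the control and filled points an adjusted p of at most 0.05. XBP1 has filled points against 3, 2 and 3 controls at the 3 times and CREB3L2 against 2 at each, while intervals of ATF6B hold 0 throughout.

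The study terms a gene SDE when 2 or more of the 3 controls give a call and the direction is shared. The paper names XBP1 among its own top-ranked SDE genes. Here the rule is applied to the edgeR calls above, so that the genes it gives need not be those of the paper. By this rule XBP1 and CREB3L2 were SDE and higher at 3, 6 and 12 h, 2 of 9 members each time. Of all genes, 0.177%, 0.0545% and 0.49% were SDE and higher at these times, and 0.769%, 0.0817% and 0.912% were SDE and lower. No member was SDE and lower by these calls. With RUV factors as covariates, MBTPS2 met the rule as lower at 3 h. Its log2 fold changes were then −0.13 over probe alone (edgeR adjusted p = 0.0256) and −0.16 over DMSO (adjusted p = 0.0043). XBP1 did not meet the rule at 6 h when T-REX replicate 1, 2, 3 or 4 or light alone replicate 1 or 2 was left out. CREB3L2 did not meet it at 12 h when T-REX replicate 1, 2 or 3 or light alone replicate 1, 2, 3 or 4 was left out, nor in fits of only the 2 arms compared, which leaves 1 of 9 members SDE in each case. Without DMSO replicate 3 at 12 h, ATF6 met it too, so that 3 of 9 did. With RUV factors as covariates, ATF6 also met the rule as higher at 6 and 12 h. The edgeR adjusted p against light alone and DMSO was then 0.0206 and 0.0049 at 6 h, and 0.00348 and 0.0199 at 12 h.

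The controls also differed among themselves in CREB3L2. Light alone gave less of it than probe alone at 3 h (log2 fold change −0.30 ± 0.048 (SE), edgeR adjusted p = 0.01), where 0.232% of genes were called in 1 or more of the 3 comparisons of controls. This call was lost without probe alone replicate 1 or 3 or light alone replicate 2 or 3, with adjusted p up to 0.083. The same difference in CREB3L2 was −0.18 at 6 h (adjusted p = 0.275) and −0.15 at 12 h (adjusted p = 0.25). No other member was called between controls at 3 h, and edgeR called 0 at 6 h (0.0749% of genes) and 0 at 12 h (5.26%). At an unadjusted p under 0.05 in 1 or more of the 3 comparisons there were 3 members at 6 h and 5 at 12 h, where 22.8% and 32.3% of all genes were. DESeq2 called CREB3L2 at each of these times, 1 of 9 members, where it called 1.33% and 9.74% of all genes. Against DMSO, probe alone had a log2 fold change of CREB3L2 of 0.21 at 6 h (adjusted p = 0.289) and 0.18 at 12 h (adjusted p = 0.0678), and of XBP1 of 0.16 at 12 h (adjusted p = 0.0974). ERN1 at 3 h was 0.28 higher on the log2 scale with light alone than with DMSO (adjusted p = 0.294).

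From 3 to 12 h, XBP1 and CREB3L2 fell in treated and untreated cells alike. Under T-REX the mean of XBP1 went from 105 ± 3.56 to 72.0 ± 1.03 CPM (SD, n = 4), and with DMSO from 83.0 ± 4.87 to 54.0 ± 2.27 CPM. The log2 fold change of XBP1 at 12 h against 3 h was −0.54 ± 0.056 (SE) in T-REX cells (edgeR adjusted p = 4.94e-11) and −0.62 ± 0.057 in DMSO cells (adjusted p = 2.34e-12). That of CREB3L2 was −0.58 in T-REX cells (adjusted p = 4.05e-12) and −0.54 in DMSO cells (adjusted p = 4.85e-11). MBTPS2 rose, by 0.29 in T-REX cells (adjusted p = 0.00029) and 0.16 in DMSO cells (adjusted p = 0.0479). MBTPS1 rose by 0.12 in T-REX cells (adjusted p = 0.0156), and CREB3 fell by 0.46 in DMSO cells (adjusted p = 0.0399, a call that the replicate block ended). So 4 of 9 members were called in T-REX cells, where 41.7% of all genes were, and 4 of 9 in DMSO cells, where 38.8% were. The call of MBTPS2 in DMSO cells was kept in 19 of 48 fits that left out 1 library, and that of CREB3 in 43. DESeq2 and RLE scaling did not call MBTPS2 in DMSO cells. The call of MBTPS1 was lost without T-REX replicate 3 at 3 h or T-REX replicate 4 at 12 h, with adjusted p up to 0.0717. Time after treatment, time in culture and the harvest cannot be told apart here.

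The T-REX effect itself, taken as T-REX minus the mean of the 3 controls, was tested for a difference between times, and 0 of 9 members were called by edgeR or DESeq2. At an unadjusted p under 0.05 there was 1 member at 6 h, MBTPS2, and 1 at 12 h, MBTPS1, where 7.47% and 11% of all genes were. For XBP1 the effect at 12 h minus that at 3 h was 0.02 on the log2 scale, with a 95% interval of −0.11 to 0.15 (edgeR adjusted p = 0.935), and at 6 h minus 3 h it was −0.02, with an interval of −0.15 to 0.11 (adjusted p = 0.962). For CREB3L2 the difference was −0.07 at 12 h (interval −0.19 to 0.06, adjusted p = 0.731) and 0.06 at 6 h (interval −0.07 to 0.18, adjusted p = 0.84). The widest interval of the 12 h difference among the members, that of CREB3, was −0.25 to 0.58. Over all genes, 0.116% were called for a different effect at 12 h and 0% at 6 h. DESeq2 called 0% at 6 h and 0.552% at 12 h, and 1097 genes had an unadjusted edgeR p under 0.05 at 6 h.

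Genes downstream of these factors were taken as lists. Of all genes, 0.177%, 0.0545% and 0.49% were SDE and higher at 3, 6 and 12 h. Of 20 targets known for XBP1, all were counted, and 0, 0 and 1 were SDE and higher at these times. That gene was SRP19, a subunit of the signal recognition particle, with 12 h log2 fold changes over light alone, probe alone and DMSO of 0.37, 0.27 and 0.44 (adjusted p = 0.00826, 0.117 and 0.000768). SEC61A1 and SSR1, parts of the translocon and the list's most abundant genes, had log2 fold changes of −0.05 to 0.22 and −0.17 to 0.18 over the 9 comparisons, highest against DMSO at 6 h (adjusted p = 0.0792 and 0.236), and were not called in any. Chosen after their values were seen, SEC61B at 3 h and SSR3 at 6 h were higher against DMSO (0.35 and 0.29), and SEC62 at 3 h and PDIA6 at 12 h were lower against DMSO (−0.22 each). The median of the list was 0.001 to 0.105 in the 9 comparisons, beside −0.0019 to 0.0309 for all genes.

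All 13 listed ATF6 targets were counted, and 1, 0 and 1 were SDE and higher, beside 0.177%, 0.0545% and 0.49% of all genes. HERPUD1, which serves degradation at the endoplasmic reticulum, was so at 3 h, with log2 fold changes of 0.41 over probe alone (adjusted p = 0.00817), 0.50 over DMSO (adjusted p = 0.00104) and 0.16 over light alone (adjusted p = 0.282). HSPA5, the chaperone BiP whose ERSE is printed above, was so at 12 h, with 0.21 over light alone (adjusted p = 0.0372) and 0.18 over DMSO (adjusted p = 0.0201), and 0.04 over probe alone (adjusted p = 0.837). HSP90B1 and CANX, the most abundant genes of the list, were not called in any comparison, with log2 fold changes of −0.08 to 0.22 and −0.09 to 0.14 over the 9 comparisons. MANF, picked after its value was seen, was higher against DMSO at 3 h (0.46, adjusted p = 0.004). The median of the list was −0.017 to 0.164.

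The list of 14 CREB3 family targets and COPII coat genes held 1 gene that was SDE and higher at each time, beside 0.177%, 0.0545% and 0.49% of all genes. It was SEC24D, the cargo-binding coat subunit known as a target of CREB3L2. Its log2 fold changes were 0.34, 0.10 and 0.32 at 3 h, 0.43, 0.35 and 0.55 at 6 h, and 0.29, 0.09 and 0.27 at 12 h, in the same order of controls. At 6 h all 3 were called (adjusted p = 0.00101, 0.0151 and 3.83e-05), and at 3 and 12 h that against probe alone was not (adjusted p = 0.369 and 0.594). SEC31A, an outer coat subunit, was not called in any comparison. Against DMSO at 12 h, where 10.9% of all genes were called in either direction, this list had 3 genes higher (SEC24D, SEC24C and CREBRF) and 3 lower (SAR1A, KDELR2 and ARF4, a small GTPase known as a CREB3 target), all but SEC24D and ARF4 named after their values were seen. The median of the list was −0.083 to 0.043.

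INSIG1 was the 1 gene of 6 other substrates and partners of the site proteases that was SDE and higher, at 12 h, where 0.49% of all genes were. Its log2 fold changes at 12 h were 0.27 over light alone (edgeR adjusted p = 0.016) and 0.21 over DMSO (adjusted p = 0.0267). Over probe alone the log2 fold change of INSIG1 was 0.02 (adjusted p = 0.943). INSIG1 holds back the sterol regulator SREBF2, which was called against DMSO at 12 h (0.25, adjusted p = 0.04). None of the 6 genes of the complex that rejoins the cut XBP1 mRNA was SDE at any time, and its most abundant members, DDX1 and FAM98B, had log2 fold changes of −0.10 to 0.12 and −0.16 to −0.02 over the 9 comparisons. None of the 6 counted of 7 known IRE1 cleavage substrates was SDE either, HGSNAT and CD59 among them, with list medians of −0.121 to −0.005.

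The third arm of the response, which runs through the kinase PERK and ATF4, had 11 of 12 listed genes in the table. Of these, 2, 0 and 1 were SDE and higher, beside 0.177%, 0.0545% and 0.49% of all genes. In protein blots from an earlier time after T-REX, the paper found no significant change in phosphorylation of the translation initiation factor eIF2α. ASNS, asparagine synthetase, had log2 fold changes of 0.73, 0.74 and 0.82 at 3 h (adjusted p = 0.0105, 0.00817 and 0.00132). PPP1R15A, which directs dephosphorylation of eIF2α, was 0.38 above probe alone and 0.25 above DMSO at 3 h (adjusted p = 0.0147 and 0.0431). Against light alone, the log2 fold change of PPP1R15A at 3 h was −0.007 (edgeR adjusted p = 0.981). ATF4 was SDE at 12 h, with 0.23, 0.21 and 0.28 (adjusted p = 0.0251, 0.0561 and 0.00129). SESN2, a stress-induced brake on mTORC1, was called against DMSO at 12 h (0.47, adjusted p = 0.025). Chosen after their values were seen, EIF2AK3, the gene of PERK, at 3 and 12 h (0.25 and 0.24) and CHAC1 at 3 h (1.05) were higher against DMSO. ATF3 was higher against probe alone at 3 h (0.41), and PPP1R15A against DMSO at 12 h (0.54). No gene of this list was called lower. The medians of this list, 0.089 to 0.294, were above that of all genes in each comparison. CREB3L1, the only counted gene of 3 other family genes, was not called in any comparison. No gene of the 8 lists was SDE and lower.

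Over the 48 libraries, with each time centred on its own mean, the genes most like XBP1 in log2 CPM were SLC7A11, the cystine and glutamate exchanger (Pearson r = 0.858), GARS1, glycyl-tRNA synthetase (0.853), and SLC1A4, a neutral amino acid transporter (0.848). CREB3L2 came at rank 5 with an r of 0.804. The genes most like CREB3L2 were SEC24D (0.876), SND1, an RNA-binding nuclease (0.816), and SLC1A4 (0.807), and XBP1 came at rank 4. ATF6 had an r of 0.538 with XBP1 and ERN1 0.486. The points share libraries and arms, so that these values are descriptions.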

How the data were processed

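RNA of 48 HEK293T cultures was sequenced as stranded paired-end libraries, with rRNA depletion in place of poly(A) selection. The authors deposited raw gene counts with Ensembl identifiers, log2 CPM, and 2 RUV factor scores per library (estimates of unwanted variation). Besides bcl2fastq, named in the submitters' processing notes, the Reporting Summary lists cutadapt, the aligner TopHat and Cufflinks for the RNA-seq, and the tool that counted reads and the genome build are not given in the sources used here. RUV-transformed values were not used. Of 14685 identifiers, 14648 matched a symbol in GENCODE 29.

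Counts were fitted in edgeR 4.0.16 (R 4.3.3) with TMM factors (0.954 to 1.055), a negative binomial quasi-likelihood model and robust dispersions, over the 16 libraries of a time or all 48 for comparisons between times. Its filter on low counts removed 0 genes. Adjusted p-values are Benjamini-Hochberg over all genes, and a gene was called at 0.05 or less. CPM are TMM-scaled, and CPM per kb divides by exon length. Intervals are 95%. The fit was tested on simulated data with known changes. DESeq2 1.42.0, limma 3.58.1 and other settings were alternatives. The labels number 4 repeats per arm, and p-values measure the spread between them.

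The 9 genes and all lists were chosen with earlier results of these data known, so no list was tested. Named from each list were genes SDE at any time and the 2 with the highest mean count, plus the 3 genes most correlated with XBP1 and with CREB3L2.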

Additional observations from a re-analysis of the deposited data

Results flagged for a closer look

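In 5 of 108 groups of 4 libraries (9 genes, 12 arms and times), 1 library stood apart from the other 3 by Dixon's test on log2 CPM at its 95% critical value, and chance flags about 1 group in 20. ATF6B was at 23.56 CPM in light alone replicate 3 at 6 h, where the others had 31.19 to 32.57 CPM, and at 31.3 CPM in probe alone replicate 3 at 6 h, where the others had 30.08 to 30.21 CPM. CREB3L2 was at 132.5 CPM in DMSO replicate 1 at 6 h, below the 143.7 to 145.8 CPM of the others. MBTPS1 was at 163.5 CPM in DMSO replicate 3 at 3 h, above 152.8 to 154.4 CPM, and MBTPS2 at 97.6 CPM in T-REX replicate 3 at 3 h, below 108 to 109.8 CPM. Light alone replicate 3 at 6 h and T-REX replicate 3 at 3 h are also among the 3 libraries farthest from their arms over all genes. Without T-REX replicate 3, the log2 fold change of MBTPS2 at 3 h against DMSO was −0.12 (edgeR adjusted p = 0.156).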

How the results depend on the processing

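No result reversed. Among the single values of the 9 genes against the controls and over time, 42 lost their call, 26 gained one and 1795 stayed on their side of the threshold, where a value called under neither setting counts as unchanged whatever its sign. The settings include a fit with no filter on low counts. It repeats the main fit, because the filter removed no gene, so that its unchanged values were fixed in advance. Of the counts of members called, 484 stayed within 1.5 times and 66 did not. DESeq2, RUV factors as covariates and fits of only the 2 arms compared changed the number of members called most often. Against probe alone at 3 h it was 1, and 3 with RUV factors and 0 with 2 arms. Against light alone at 6 h it was 2, and 1 with 2 arms. Against probe alone at 6 h it was 0, and 2 with DESeq2, with RUV factors and with 2 arms alike. Against DMSO at 12 h it was 4, and 1 with 2 arms, with which 1 member in place of 2 was SDE at 12 h. Between controls it was 1 at 3 h and 2 with RUV factors, 0 at 6 h and 1 with DESeq2 and 2 with RUV factors, and 0 at 12 h and 1 with DESeq2 and 4 with RUV factors. Of all 14685 genes, RUV factors called 858, 1797 and 1022 for light alone against DMSO at 3, 6 and 12 h. They called 183, 360 and 3298 for probe alone against DMSO, and 2176, 450 and 1231 for light alone against probe alone. Over all genes, the numbers called for T-REX at 3 h were, in the order light alone, probe alone and DMSO, 29, 154 and 880, beside 260, 623 and 1200 with DESeq2, 1733, 2551 and 3061 with RUV factors, and 3, 3 and 187 with 2 arms. At 6 h they were 32, 16 and 61, beside 153, 57 and 288, then 1202, 257 and 1048, then 9, 88 and 128. At 12 h they were 189, 103 and 1598, beside 409, 257 and 2069, then 1266, 901 and 3925, then 1127, 389 and 366. The cause of these differences was not tested. Genes with a different T-REX effect at 12 h than at 3 h were 17, and 81 with DESeq2.

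Leaving out each library in turn gave 1 to 2 members against light alone and 0 to 2 against probe alone at 6 h. At 12 h it gave 1 to 3 against light alone, 0 to 1 against probe alone and 2 to 5 against DMSO. At 3 h it gave 2 to 4 against DMSO. Between controls it gave 0 to 1 at 3 h and 0 to 2 at 12 h. SDE members were 1 to 2 at 6 h and 1 to 3 at 12 h, and always 2 at 3 h. In DMSO cells from 3 to 12 h it gave 2 to 4. In the same order of controls, the numbers of genes called ranged from 9 to 119, 18 to 535 and 295 to 1137 at 3 h, from 14 to 190, 6 to 44 and 11 to 222 at 6 h, and from 94 to 616, 29 to 330 and 795 to 2655 at 12 h.

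Same-numbered libraries of 2 arms had correlated deviations of −0.644 to 0.58 at 3 h, −0.538 to 0.474 at 6 h and −0.349 to 0.234 at 12 h, with 12, 10 and 8 of 24 pairs over 0.1. In 0 of 6 pairs of arms at each time were all 4 over 0.1. T-REX with probe alone at 6 h came nearest, with all 4 positive and the lowest at 0.097, so that the numbers were not taken to pair the samples. With the replicate block, 3 members in place of 4 were called in DMSO cells from 3 to 12 h, CREB3 being lost, and every other count of members was as without it. The block raised the genes called against light alone from 29 to 44 at 3 h and from 32 to 50 at 6 h.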
